A study of Mus musculus with 6 samples.

Results

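The proteins described here bind RNA or build RNA granules in the lens, and 10 genes encode them: Tdrd7, Caprin1, Caprin2, Celf1, Celf2, Rbm24, Stau1, Stau2, Pabpc1 and Carhsp1. They were chosen by name, with earlier results of these data known. All 10 were found among the 41102 features kept from the count tables and among the 14271 features with enough counts to test. RNA was sequenced from mouse lenses at embryonic stage E13.5, when primary lens fibre cells elongate. A set of 3 libraries came from a conditional knockout (Prox1 cKO) that carried floxed Prox1 alleles and the MLR10Cre transgene (Prox1 f/f MLR10Cre+), and 3 came from wild type C57Bl/6 lenses. The labels give C57Bl/6 as the strain of both groups. Each library pooled 30 lenses, per the labels, and nothing says whether litters were shared between pools, so p-values measure the spread between pools. In MLR10Cre mice, a modified promoter of the alpha A crystallin gene drives Cre in lens cells. No library of Cre without floxed alleles, or of floxed alleles without Cre, was analysed here, so an effect of the transgene and the loss of Prox1 cannot be told apart.

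Lens fibre cells lose their nuclei as they mature, so transcription stops while the cell still needs protein. What happens to existing mRNA (its splicing, storage, transport, translation and decay) is in the hands of RNA-binding proteins, many of which gather with mRNA in cytoplasmic granules. Loss of Tdrd7, Caprin2, Celf1 or Rbm24 in mice gives eye or lens defects, and TDRD7 mutations cause cataract in people.

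Knockout libraries held between 9082219 and 28391662 counts and wild type libraries between 20731491 and 21061582 counts. Prox1 itself was read at 651, 728 and 707 CPM (counts scaled by library size, here with TMM factors) in Prox1 cKO libraries 1, 2 and 3, against 922, 1215 and 1246 CPM in wild type libraries 1, 2 and 3. The groups did not overlap, and the log2 change was -0.70 ± 0.14 (standard error, SE; edgeR adjusted p = 0.0074). With library total scaling it was -0.34 and not called (edgeR adjusted p = 0.0532). The count covers all exons of Prox1, and the sources used here do not say which of them is floxed. Of 16 crystallin genes, which encode the bulk proteins of fibre cells, 15 fell, with a median log2 change of -3.81. Their summed level was 23864, 25788 and 28731 CPM in the Prox1 cKO libraries, against 134296, 255318 and 272389 CPM in the wild type libraries, so wild type library 1 was the lowest of its group. Of 9 lens-defining genes, 7 fell and 1 rose. The falls include Prox1 itself and the crystallin genes Cryaa and Crybb1, which are also among the 16 above. In such bulk samples, fewer cells of a type and less RNA per cell cannot be told apart.

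Tdrd7 and Caprin2 fell by far the most of the 10 genes. Rbm24 and Carhsp1 fell by about the same amount as each other, Celf1, Pabpc1 and Stau2 fell less, and Celf2 was the only one of the 10 to rise. Caprin1 and Stau1 did not pass the test. A gene is called here when its edgeR adjusted p is below 0.05 over all 14271 features. Of the 10 genes, 1 rose and 7 fell, where 32.6% of all features tested were called (15.9% rose and 16.8% fell). Because the genes were chosen with earlier results of these data known, the counts are a description. The 10 genes had a median log2 change of -0.50, against 0.04 over all features. For all 10, in TMM-scaled CPM, the 3 libraries of one group lay wholly above or below those of the other. The same held for 50.1% of all features. This depends on the scaling: with library total scaling the groups overlapped for Caprin1, Celf1, Stau2 and Pabpc1.

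**Figure D1:**
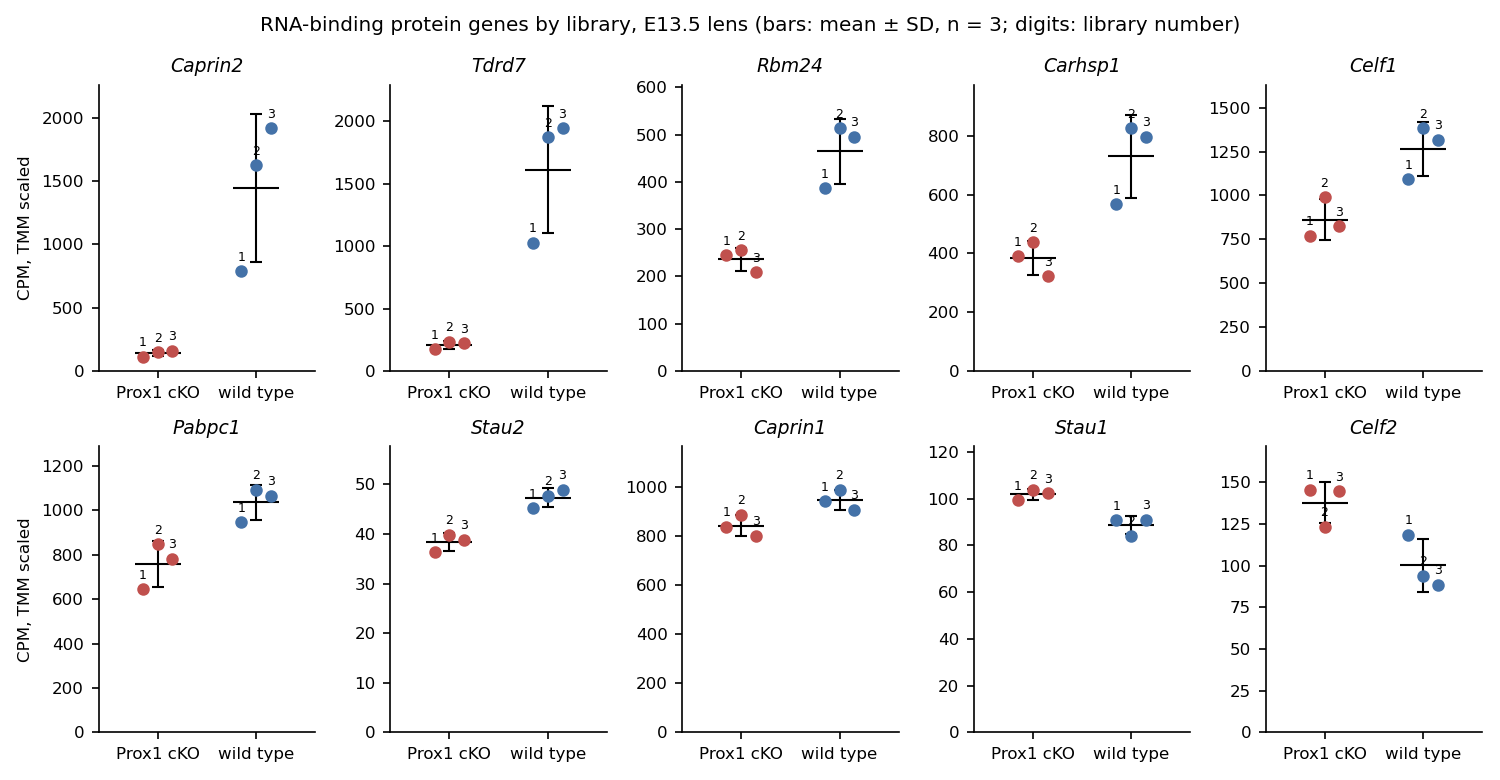
Level of each gene in each library (vertical axis, TMM-scaled CPM, starting at 0), with Prox1 cKO left of wild type. Points are libraries with their numbers, and bars give the mean and SD of 3 libraries. Caprin2 and Tdrd7 lay between 112 and 233 CPM in the Prox1 cKO and between 789 and 1946 CPM in the wild type.

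Tdrd7 encodes a protein with tudor and LOTUS domains that is a component of RNA granules in lens fibre cells. It was read at 173, 233 and 221 CPM in Prox1 cKO libraries 1, 2 and 3, against 1026, 1872 and 1946 CPM in wild type libraries 1, 2 and 3. Every Prox1 cKO library was far below every wild type library, and wild type library 1 was again the lowest of its group. The change was -2.95 ± 0.26 in log2 units (7.73-fold lower; SE; edgeR adjusted p = 0.000181). Only 0.834% of the features tested had a lower log2 change. Tdrd7 (ENSMUSG00000035517) lies on chromosome 4 from 45965334 to 46034761 on the plus strand (GRCm38).

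Caprin2 encodes a relative of the granule protein CAPRIN1 that is induced by FGF signalling in lens fibre cells. Its levels were 112, 149 and 161 CPM in Prox1 cKO libraries 1, 2 and 3, against 789, 1625 and 1919 CPM in the wild type libraries. The groups were as far apart as for Tdrd7, and wild type library 1 again stood well below the other two. Caprin2 fell by 3.36 in log2 units (SE 0.32; 10.3-fold lower; edgeR adjusted p = 0.000249), and 0.575% of the features tested had a lower log2 change. It lies on chromosome 6 from 148842492 to 148896237 on the minus strand (ENSMUSG00000030309). Over all 14 other ways of scaling, filtering, testing or leaving out a library, the change lay between -3.23 and -2.58 for Tdrd7 and between -3.70 and -2.99 for Caprin2, and both stayed called. Both belong to the 1.9% of features that were called and at least 4-fold lower.

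Since these 2 genes moved furthest together, the sequence before their transcript starts is shown, from RefSeq (GRCm38.p6), 5′ to 3′ on the gene's strand. Capitals mark the GC box GGGCGG or its reverse complement, and, in 1 Tdrd7 window, the MAF family motif TGCTGA. The Caprin2 window is chr6:148896238-148896487 on the minus strand, and the Tdrd7 windows, on the plus strand, are chr4:45965085-45965333, chr4:45972047-45972232 and chr4:45972581-45972830.
Caprin2: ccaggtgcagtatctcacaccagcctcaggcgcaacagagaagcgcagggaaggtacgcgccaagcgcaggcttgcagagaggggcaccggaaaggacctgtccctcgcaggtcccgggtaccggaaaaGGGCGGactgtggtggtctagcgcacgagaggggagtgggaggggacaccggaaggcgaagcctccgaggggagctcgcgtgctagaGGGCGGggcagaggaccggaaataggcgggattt
Tdrd7 upstream start: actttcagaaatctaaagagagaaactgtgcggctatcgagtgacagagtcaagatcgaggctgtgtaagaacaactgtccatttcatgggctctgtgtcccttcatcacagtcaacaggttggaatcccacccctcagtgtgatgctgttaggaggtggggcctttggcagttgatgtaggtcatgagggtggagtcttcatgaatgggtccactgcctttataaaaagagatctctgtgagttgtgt
Tdrd7 middle start: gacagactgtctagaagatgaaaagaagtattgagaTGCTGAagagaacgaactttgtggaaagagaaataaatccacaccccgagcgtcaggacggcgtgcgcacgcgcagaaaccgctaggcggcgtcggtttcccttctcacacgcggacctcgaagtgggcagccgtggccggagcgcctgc
Tdrd7 downstream start: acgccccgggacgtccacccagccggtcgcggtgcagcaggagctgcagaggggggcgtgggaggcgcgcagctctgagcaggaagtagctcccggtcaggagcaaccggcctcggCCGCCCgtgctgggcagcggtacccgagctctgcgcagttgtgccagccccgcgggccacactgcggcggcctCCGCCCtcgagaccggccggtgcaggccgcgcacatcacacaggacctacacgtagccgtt
The windows reach up to 250 bases before each start, without bases that lie in an annotated exon (1 base at the upstream Tdrd7 start and 64 bases at the middle one). Both strands were searched for these motifs, for the CCAAT box (letters CCAAT) and for the heat shock element core (letters GAANNTTC), and no match overlapped another in the windows shown. Caprin2 held 2 GC boxes in a window of 65.6% G and C, and the downstream Tdrd7 start held 2 in a window of 73.2% G and C. The upstream Tdrd7 start, at 47.4% G and C, held none of these motifs, and the middle one held 1 MAF motif in the bases shown and 1 GC box in the bases left out. Among 32851 RefSeq promoter windows of the same length, 16.1% held the MAF motif, 32.7% the GC box, 33.8% the CCAAT box and 6.69% the heat shock element core. A match describes letters only. RefSeq windows were found for 8 of the 10 genes, with Stau2 and Pabpc1 not among them.

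Caprin1 encodes a partner of the stress granule protein G3BP1 and is widely expressed in dividing cells. Its levels were 837, 886 and 800 CPM in Prox1 cKO libraries 1, 2 and 3, against 942, 988 and 906 CPM in the wild type libraries. The Prox1 cKO libraries were all lower, but by a small margin, and the log2 change of -0.17 ± 0.11 (SE) did not pass the test (edgeR adjusted p = 0.247). When libraries were scaled by their total count alone, the change was 0.18 (edgeR adjusted p = 0.299), in the other direction.

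The CELF proteins and RBM24 bind mRNA and set its splicing, stability and translation. Celf1 binds GU-rich sequence and promotes decay of its target mRNAs. It was read at 771, 991 and 825 CPM in Prox1 cKO libraries 1, 2 and 3, against 1091, 1383 and 1317 CPM in the wild type libraries. With this TMM scaling the highest Prox1 cKO library stayed below the lowest wild type library. The log2 change was -0.55 ± 0.14 (SE; 1.47-fold lower; edgeR adjusted p = 0.0213). The call was lost with library total scaling (-0.20, adjusted p = 0.254 by edgeR) and without Prox1 cKO library 1 or 3 or wild type library 2 or 3 (edgeR adjusted p between 0.0507 and 0.0811).

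Celf2, the close paralogue of Celf1, acts as a splicing regulator in brain, muscle and T cells. Its levels were 146, 123 and 145 CPM in Prox1 cKO libraries 1, 2 and 3, against 119, 94.0 and 88.7 CPM in the wild type libraries. Prox1 cKO library 2 lay only just above wild type library 1, and the groups did not overlap. Celf2 rose by 0.46 in log2 units (SE 0.13; 1.37-fold; edgeR adjusted p = 0.0279). Without Prox1 cKO library 1 or 3 or wild type library 2 or 3 it was not called (edgeR adjusted p between 0.0628 and 0.126). Of 13 neural retina genes tested, 5 rose, where 15.9% of all features tested rose. The list's sum was 1627 to 2334 CPM in the Prox1 cKO libraries against 755 to 1065 CPM in the wild type libraries. Sox2, also on the list, stood at 0 throughout, and whether this 0 reflects its RNA level was not tested. Of 8 surface ectoderm genes, 8 rose, with sums of 59.0 to 197 CPM in the Prox1 cKO and 13.7 to 43.5 CPM in the wild type. With 1 library left out, 1 (without wild type 2 or 3) to 8 (without wild type 1) retina genes and 2 (without wild type 2) to 8 ectoderm genes rose. Of 15 neuron genes, 2 rose and 2 fell, and they summed to 264 to 287 CPM in the Prox1 cKO and 217 to 317 CPM in the wild type, ranges that overlap. The part of such cells in the rise of Celf2 was not tested. Some 7.58% of the annotated exon bases of Celf2 lie opposite the lincRNA gene Gm26565, and the libraries keep no strand.

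Rbm24 encodes an RNA-binding protein with a single RNA recognition motif that directs muscle splicing and, in the eye, stabilises Sox2 mRNA. It was read at 244, 256 and 209 CPM in Prox1 cKO libraries 1, 2 and 3, against 386, 513 and 495 CPM in the wild type libraries. All Prox1 cKO libraries were lower, and the log2 change was -0.98 ± 0.14 (SE; 1.97-fold lower; edgeR adjusted p = 0.0015). The call held in all 14 alternatives, between -1.13 and -0.61. Skeletal muscle genes, of which 7 were tested and edgeR called 0 (2 at an unadjusted p under 0.05; DESeq2 called 1 and limma-voom 0), summed to 14.1, 25.3 and 125 CPM in Prox1 cKO libraries 1, 2 and 3 and to 18.2, 31.8 and 45.0 CPM in the wild type libraries. The sums overlapped between the groups, and the part of muscle cells in the level of Rbm24 was not tested.

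Staufen proteins bind double-stranded RNA: Stau1 takes part in mRNA decay and transport, and Stau2 carries mRNA into the dendrites of neurons. Stau1 levels were 99.3, 104 and 102 CPM in Prox1 cKO libraries 1, 2 and 3, against 90.6, 84.1 and 90.9 CPM in the wild type libraries. Stau2 levels were 36.3, 39.8 and 38.8 CPM in the Prox1 cKO, against 45.2, 47.8 and 48.9 CPM in the wild type. The 2 genes thus lay on opposite sides with TMM scaling: Stau1 was higher and Stau2 lower in every Prox1 cKO library. Stau1 changed by 0.20 ± 0.08 in log2 units (SE; edgeR adjusted p = 0.092) and did not pass, although it did with upper quartile scaling (0.25, edgeR adjusted p = 0.0471) and library total scaling (0.55, edgeR adjusted p = 0.00689). Stau2 fell by 0.31 (SE 0.09; 1.24-fold; edgeR adjusted p = 0.0338), but this call held in only 5 of 14 alternatives. It was lost without any 1 Prox1 cKO library or without wild type library 2 or 3 (edgeR adjusted p between 0.0545 and 0.111), and library total scaling turned it to 0.048 (edgeR adjusted p = 0.773).

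Pabpc1 encodes the main cytoplasmic poly(A)-binding protein, which coats mRNA tails and aids translation. It was read at 646, 847 and 783 CPM in Prox1 cKO libraries 1, 2 and 3, against 947, 1093 and 1066 CPM in the wild type libraries. All Prox1 cKO libraries were lower with TMM scaling, and Pabpc1 fell by 0.45 in log2 units (SE 0.13; 1.37-fold; edgeR adjusted p = 0.0338). The call was lost with library total scaling (-0.10, edgeR adjusted p = 0.553) and without Prox1 cKO library 1 or 3 or wild type library 2 or 3 (edgeR adjusted p between 0.0631 and 0.108).

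Carhsp1 encodes a cold shock domain protein that binds and stabilises mRNA in macrophages. Its levels were 390, 438 and 323 CPM in Prox1 cKO libraries 1, 2 and 3, against 567, 827 and 798 CPM in the wild type libraries. The gap between the groups was clear, with wild type library 1 the lowest of its group. Carhsp1 fell by 0.93 in log2 units (SE 0.17; 1.90-fold; edgeR adjusted p = 0.00522), and the call held in all 14 alternatives, between -1.12 and -0.56.

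**Figure D2:**
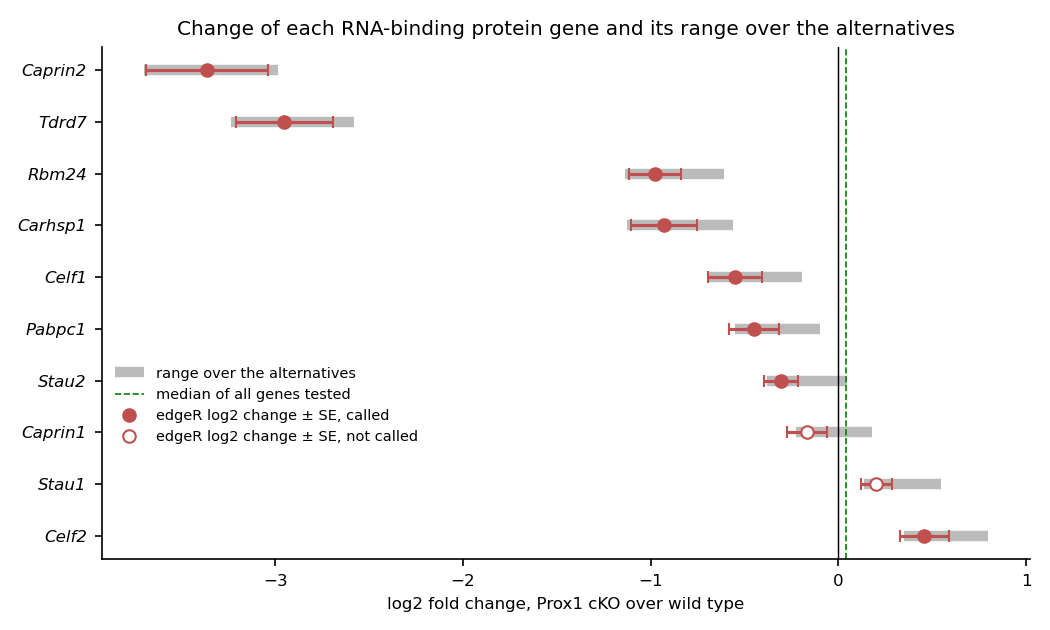
Log2 fold change of each gene, Prox1 cKO over wild type (horizontal axis), with filled points called, open points not called, bars for the SE and grey bands for the range over 14 alternatives. The bands of Caprin2 and Tdrd7 end at -2.99 and -2.58, and those of Caprin1 and Stau2 cross 0.

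The 10 genes together took 0.414%, 0.446% and 0.394% of all counts in Prox1 cKO libraries 1, 2 and 3, against 0.590%, 0.718% and 0.724% in the wild type libraries. Within those counts, Tdrd7 made up 5.0%, 5.74% and 6.13% in the Prox1 cKO, against 17.1%, 21.95% and 22.4% in the wild type. The share of Caprin2 was 3.23%, 3.66% and 4.47% in the Prox1 cKO, against 13.1%, 19.1% and 22.1% in the wild type. The shares within the 10 genes do not depend on how libraries are scaled, and they did not overlap between the groups.

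Levels of different genes were compared per length, in the deposited RPKM (CPM divided by gene length), which is scaled by library total. Under that scaling the median log2 change of all features was 0.39, against 0.04 with TMM, so a difference between groups in RPKM reads against 0.39. In the Prox1 cKO, Carhsp1 was highest at 152 ± 24.6 RPKM (SD, n = 3), followed by Pabpc1 at 148 ± 13.6 and Celf1 at 115 ± 12.1 RPKM. Caprin1, Rbm24 and Tdrd7 came next at 92.9 ± 6.64, 83.1 ± 10.7 and 59.3 ± 6.35 RPKM, and Caprin2 and Stau1 lay lower at 20.6 ± 2.83 and 18.9 ± 0.62 RPKM. Stau2 at 6.40 ± 0.11 RPKM and Celf2 at 6.02 ± 0.75 RPKM were lowest. Within the Prox1 cKO, the library ranges overlapped between the neighbours Carhsp1 and Pabpc1, Caprin1 and Rbm24, Caprin2 and Stau1, and Stau2 and Celf2.

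In the wild type, Tdrd7 was the highest of the 10 at 355 ± 86.4 RPKM (SD, n = 3), above 99.5% of the features tested. Carhsp1 at 225 ± 25.6, Caprin2 at 163 ± 55.6 and Pabpc1 at 158 ± 3.73 RPKM came next. Celf1 and Rbm24 followed at 132 ± 5.61 and 127 ± 8.27 RPKM, and Caprin1 at 82.0 ± 8.35 RPKM. Stau1 at 13.0 ± 1.56, Stau2 at 6.20 ± 0.33 and Celf2 at 3.47 ± 0.90 RPKM were lowest. Ranges overlapped between Carhsp1 and Caprin2, Caprin2 and Pabpc1, and Celf1 and Rbm24. Tdrd7 thus ranked 6 of 10 in the Prox1 cKO and 1 in the wild type, and Caprin2 ranked 7 in the Prox1 cKO and 3 in the wild type. The rank of Caprin2 rests on a length of 7.656 kb behind the deposited RPKM, while its annotated exons hold 14.14 kb. Per annotated length, a check chosen after seeing the data, Caprin2 stood at 11.2 ± 1.53 RPKM in the Prox1 cKO (rank 8) and 88.3 ± 30.1 RPKM in the wild type (SD, n = 3; rank 6, with a range that overlapped those of Rbm24 and Caprin1), and Tdrd7 kept its ranks. The lengths of Rbm24 and Pabpc1 differed less (3.215 and 5.768 kb, against 3.491 and 6.54 kb annotated).

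**Figure D3:**
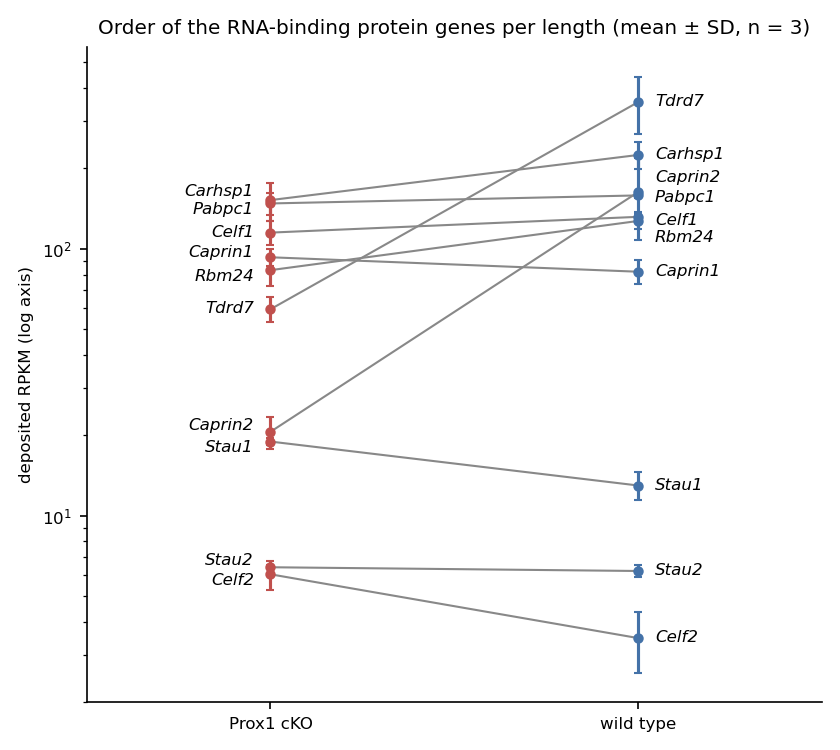
Deposited RPKM of the 10 genes (vertical log axis, mean ± SD, n = 3) in the Prox1 cKO and the wild type, with a line joining each gene. The place of Caprin2 depends on the gene length used. Tdrd7 and Caprin2 drop through the order, at 59.3 and 20.6 RPKM in the Prox1 cKO against 355 and 163 RPKM in the wild type.

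Ratios of paralogues within a library cancel any scaling. Caprin2 over Caprin1, per length, was 0.178, 0.225 and 0.269 in Prox1 cKO libraries 1, 2 and 3, against 1.12, 2.20 and 2.83 in the wild type libraries. The ratio was 8.64-fold lower in the Prox1 cKO, whichever lengths are used, and Caprin2 was the less abundant of the pair in all 3 Prox1 cKO libraries. Its place in the wild type depends on the length: per annotated exon length the ratios were 0.0964, 0.122 and 0.146 in the Prox1 cKO, against 0.605, 1.19 and 1.53 in the wild type, so that Caprin2 exceeded Caprin1 in wild type libraries 2 and 3 but not in library 1. Celf2 over Celf1 was 0.0616, 0.0407 and 0.0572 in the Prox1 cKO, against 0.0354, 0.0222 and 0.0220 in the wild type, a 2.02-fold higher ratio with Celf1 the more abundant throughout. Stau2 over Stau1 was 0.328, 0.345 and 0.341 in the Prox1 cKO, against 0.448, 0.510 and 0.484 in the wild type, a 1.42-fold lower ratio. None of the 3 ratios overlapped between the groups. The exact two-sided permutation test gave p = 0.1 for each (0.1 also after Benjamini-Hochberg adjustment over 3 pairs), which is the smallest value that 3 against 3 libraries allow.

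**Figure D4:**
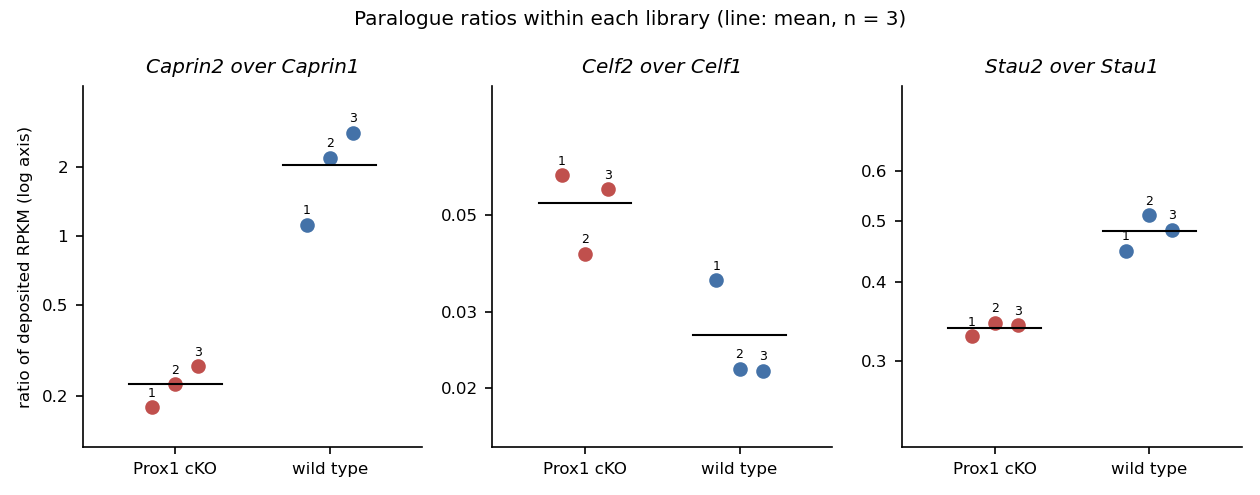
Ratio of deposited RPKM within each library (vertical log axis) for Caprin2 over Caprin1, Celf2 over Celf1 and Stau2 over Stau1, with libraries numbered and the group mean as a line. The Caprin ratio lay between 0.178 and 0.269 in the Prox1 cKO and between 1.12 and 2.83 in the wild type.

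The genes whose level pattern was most like that of Caprin2 and Tdrd7 were found by the root mean square difference of log2 CPM, centred on each gene's mean, over the 6 libraries. For Caprin2 they were the feature listed as Lim2_2 (0.0619), Fam89a (0.0665), Mybphl (0.0761), and the beta crystallin genes Crybb3 (0.122) and Cryba1 (0.124). Crybb3 averaged 2699 ± 280.2 CPM over 3 Prox1 cKO libraries and 25745 ± 9578 CPM over 3 wild type libraries (SD), a log2 change of -3.25. Mybphl had only 1 or 2 counts in each Prox1 cKO library, and its edgeR log2 change was -4.58. The log2 CPM compared here include a prior count of 2, which lifts such low values. Its likeness to Caprin2 is thus not an equal size of change. For Tdrd7 the closest were Csmd2 (0.0681), the gamma crystallin gene Crygn (0.0802), the melatonin receptor gene Mtnr1a (0.0947), Pdxk-ps (0.114) and the galectin-related fibre gene Grifin (0.138). Crygn averaged 381 ± 32.9 CPM in the Prox1 cKO and 2789 ± 824 CPM in the wild type, a log2 change of -2.87. All 10 of these genes fell (edgeR adjusted p between 0.000123 and 0.000907), which follows from picking them for likeness to genes that fell. Their likeness, measured over the same 6 libraries, is a description.

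Of 12 paralogues of the 10 genes tested, 1 rose and 3 fell, with a median log2 change of -0.11. This is 33.3% called, near the 32.6% called of all features tested. Rbm20, a splicing regulator of heart muscle, averaged 13.1 CPM in the Prox1 cKO and 4.56 CPM in the wild type, a rise of 1.51 (edgeR adjusted p = 0.00196). Rbm38, the closest relative of Rbm24, averaged 8.37 CPM in the Prox1 cKO and 17.1 CPM in the wild type (log2 change -1.0, edgeR adjusted p = 0.0099; 0.0524 with library total scaling). Csdc2, related to Carhsp1, also fell (-0.82), a call lost without Prox1 cKO library 1 or wild type library 2 or 3 (edgeR adjusted p up to 0.0889). With library total scaling Csdc2 was at -0.44 and not called (edgeR adjusted p = 0.09). Of 9 other tudor domain genes tested, 0 rose and 2 fell by edgeR, likewise by DESeq2 and limma-voom and at an unadjusted p under 0.05. By edgeR this is 22.2% called, against 32.6% of all features tested. Tdrkh, which serves piRNA processing in germ cells, averaged 40.2 CPM in the Prox1 cKO and 102 CPM in the wild type (-1.33, edgeR adjusted p = 0.000249), and Tdrd9 was scarce at 2.80 CPM in the Prox1 cKO and 9.72 CPM in the wild type (-1.80).

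Among 25 genes of mRNA transport granules, 1 rose and 7 fell (32.0% called, median log2 change -0.05). The falls of this list were led by CPEB proteins, which bind the cytoplasmic polyadenylation element and control translation of stored mRNA. Cpeb1 was read at 22.3, 22.8 and 23.4 CPM in Prox1 cKO libraries 1, 2 and 3, against 62.3, 80.5 and 91.4 CPM in the wild type libraries (log2 change -1.77, edgeR adjusted p = 0.000157). The groups were well apart. Cpeb2 averaged 33.1 CPM in the Prox1 cKO and 115 CPM in the wild type (-1.81, edgeR adjusted p = 0.000495), and Cpeb3 averaged 3.01 CPM in the Prox1 cKO and 17.4 CPM in the wild type (-2.57, edgeR adjusted p = 0.00233). Cpeb4, named after its values were seen, averaged 50.8 CPM in the Prox1 cKO and 112 CPM in the wild type (-1.15, edgeR adjusted p = 0.00272). All 4 Cpeb genes stayed called in all 14 alternatives. Khdrbs1 was the 1 that rose (0.30), a call lost in 7 of the 14, among them without any 1 library except Prox1 cKO library 3 (edgeR adjusted p up to 0.193).

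Of 25 stress granule genes, 3 rose and 6 fell (36.0% called, median -0.11). Ybx3, a cold shock domain protein, averaged 145 CPM in the Prox1 cKO and 237 CPM in the wild type (-0.71, edgeR adjusted p = 0.00168). Usp10 (-0.69) and G3bp2 (-0.51), a G3BP-binding deubiquitinase and a granule scaffold, fell too, and Zfp36l1, which recruits decay factors to AU-rich mRNA, rose by 1.14 (31.9 CPM in the Prox1 cKO and 14.5 CPM in the wild type). Zfp36l2 (0.37) and Khsrp (0.39) also rose. Without 1 library, the calls of G3bp2 (Prox1 cKO 1 or 2 or wild type 2), Zfp36l2 (Prox1 cKO 2 or wild type 2 or 3) and Khsrp (Prox1 cKO 2 or 3 or wild type 2 or 3) were lost, with edgeR adjusted p up to 0.125. With library total scaling G3bp2 was not called either (-0.16, edgeR adjusted p = 0.403). The count of 9 called genes dropped to 4 without Prox1 cKO library 2 or wild type library 2 and to 5 without wild type library 3.

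Of 25 deadenylation and poly(A) tail genes, 3 rose and 3 fell (24.0% called, median 0.04). Tob1, an antiproliferative protein that recruits the CCR4-NOT deadenylase, fell by 2.04 (79.7 CPM in the Prox1 cKO and 329 CPM in the wild type, edgeR adjusted p = 0.000411). Its relative Btg1 rose by 0.85 (404 CPM in the Prox1 cKO and 224 CPM in the wild type, edgeR adjusted p = 0.00387), and Btg2 rose by 0.56. Larp4 (-0.63) and Larp4b (-0.43) fell and Cnot6 (0.34) rose. With library total scaling edgeR called neither Larp4 (-0.28, adjusted p = 0.082) nor Larp4b (-0.07, adjusted p = 0.618). The calls of Btg2 (without wild type library 3), Larp4b (without wild type library 2 or 3) and Cnot6 (without Prox1 cKO library 2 or wild type library 2 or 3) were lost, with edgeR adjusted p up to 0.147. The 6 calls dropped to 3 without wild type library 3. Of 27 processing body and mRNA decay genes, 1 rose and 3 fell (14.8% called, median 0.03). Tnrc6b, a microRNA silencing factor, fell by 1.22 (edgeR adjusted p = 0.0245), Lsm4 by 0.58 and Ago3 by 0.55, and Dcps rose by 0.41. Without wild type library 2 or 3, edgeR gave Tnrc6b an adjusted p up to 0.084. The call of Dcps was lost without any 1 library except Prox1 cKO library 3 (edgeR adjusted p up to 0.153). Those of Lsm4 (without wild type library 2) and Ago3 (without wild type library 2 or 3) were lost too, with edgeR adjusted p up to 0.0872. With library total scaling edgeR called neither Lsm4 (-0.22, adjusted p = 0.257) nor Ago3 (-0.20, adjusted p = 0.266). The list's 4 calls dropped to 0 without wild type library 2 and to 1 without wild type library 3.

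Of 16 splicing factors of the MBNL, RBFOX, PTBP and related families, 4 rose and 2 fell (37.5% called, median 0.27), with 3 calls left without wild type library 2. Esrp2, an epithelial splicing factor, rose by 2.26 from a low level (2.38 CPM in the Prox1 cKO and 0.46 CPM in the wild type, edgeR adjusted p = 0.0349), and the call was lost without Prox1 cKO library 3 or wild type library 2 or 3 (edgeR adjusted p up to 0.122). The surface ectoderm genes given beside Celf2 were also highest in Prox1 cKO library 3, and their part in the rise of Esrp2 was not tested. Mbnl3 rose by 0.87 and Rbfox3 fell by 1.42, calls lost without wild type library 2 (both) or 3 (Mbnl3), with edgeR adjusted p up to 0.0769. With library total scaling the counts of genes that rose and fell were 14 and 1 for processing bodies, 12 and 1 for deadenylation, 8 and 2 for stress granules, and 7 and 4 for transport granules. Over all 14271 features tested with that scaling, 5423 rose and 945 fell.

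**Figure D5:**
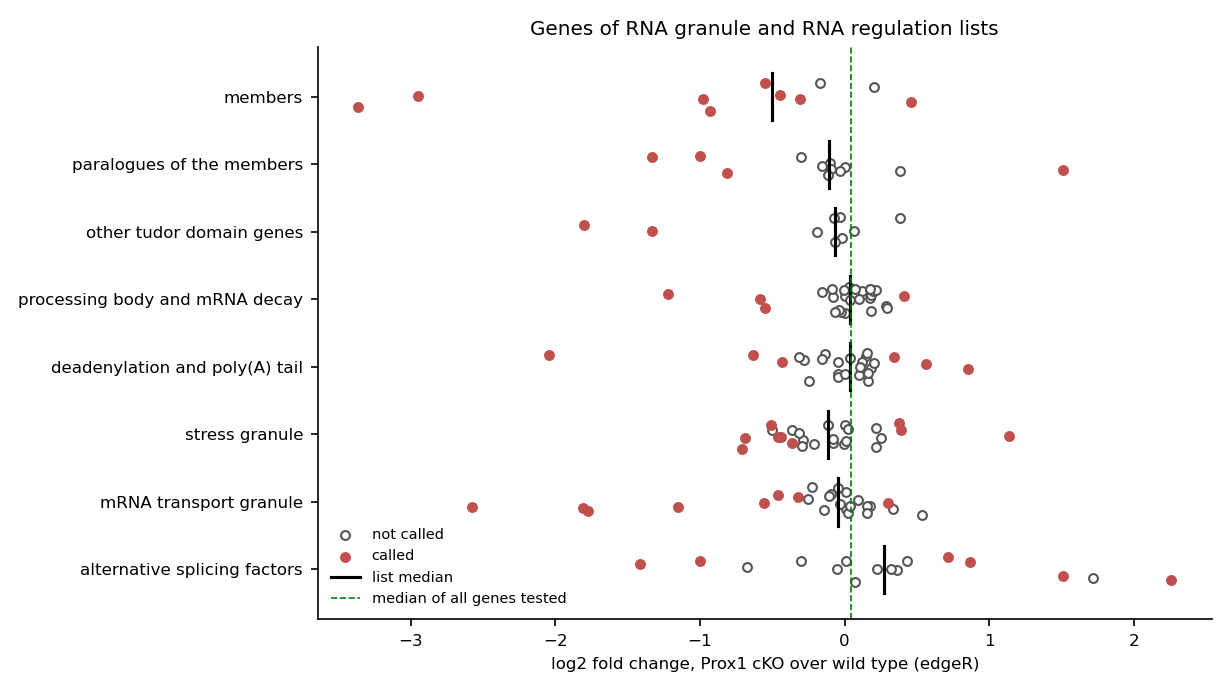
Log2 fold change, Prox1 cKO over wild type (horizontal axis), of each tested gene in the lists of RNA granule and RNA regulation genes, filled where called, with the list median (black) and the median of all features tested (dashed, 0.04). Transport granule genes hold 7 falls, to -2.57, and the median of the processing body genes is 0.03, with called falls to -1.22.

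A list of 10 mRNAs that these proteins are known to act on in the lens was also followed, of which 9 were tested. Dnase2b, the nuclease that degrades nuclear DNA in fibre cells, had 0, 0.42 and 0.40 CPM in Prox1 cKO libraries 1, 2 and 3, against 1.5, 19.5 and 29.8 CPM in the wild type libraries (log2 change -6.53, edgeR adjusted p = 0.00731). Wild type library 1 was far below the other two, and limma-voom did not call it. Crybb3 fell by 3.25, Prox1 by 0.70 and Lin28b by 0.38, and Pax6, a transcription factor of the early lens, rose by 0.46. The calls of Lin28b (without Prox1 cKO library 1 or 3) and of Lin28b and Pax6 (without wild type library 2 or 3) were lost, with edgeR adjusted p up to 0.116. With library total scaling edgeR called neither Lin28b (-0.03, adjusted p = 0.852) nor Prox1 (-0.34, adjusted p = 0.0532). Hspb1 (0.70), Cdkn1a (-0.42), Cdkn1b (-0.28) and Sparc (-0.16) were not called by edgeR. Sox2 was listed at 0 in every library, and whether this 0 reflects its RNA level was not tested. Of the 9, 1 rose and 4 fell (55.6% called, against 32.6% of all features tested), with 3 calls left without wild type library 2 and 3 with library total scaling. The 4 falls include Prox1, the gene targeted in the knockout, whose fall says nothing about the list.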

How the data were processed

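RNA was counted in 3 Prox1 cKO and 3 wild type libraries made from pooled lenses with a TruSeq poly(A) kit that does not mark strand, read as single ends of 51 bp, per the labels' protocols. Per the file headers, the deposited tables give each feature's raw count along with its CPM and RPKM. The deposited CPM equals the count scaled by the library total (tolerance 1e-06), and the deposited RPKM divides it by 1 length per feature. GRCm38 and edgeR are named in the submitters' processing notes. No aligner or counter is named in the sources used here. Of 41128 features, 26 whose count and CPM did not match were left out (0.0424% to 0.0636% of a library's counts).

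Raw counts were tested in R 4.3.3 with the edgeR 4.0.16 quasi-likelihood test after filterByExpr (minimum count 10) and TMM scaling, with Benjamini-Hochberg adjustment over 14271 features and a threshold of 0.05. The script recovered set changes in simulated data with the same relative spread for every gene and few changed genes. Since the real data differ in both, this checks the code and not the calls or the scaling. A count of 3, taken as the limit of a 0, is 0.106 to 0.33 CPM and covers counting error only. Alternatives were DESeq2 1.42.0, limma-voom (limma 3.58.1), other scalings and filters, a replicate block and leaving out each library. Replicates of a group differed by more than sampling noise, and library 1 stood apart in each group. Chi-square per degree of freedom was 66.4 and 79.9 for wild type library 1 against libraries 2 and 3, and 9.36 between those. In the Prox1 cKO the same values were 97.2 and 134, and 15.1. Prox1 cKO library 1 also held the most counts, which raises this measure. Coordinates and exons are from GENCODE M21 (GRCm38).

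The 10 genes and all lists were chosen with earlier results of these data known. The rule was to name the 10 genes, Prox1, the known target mRNAs, up to 3 called genes of largest rise and fall per list, and the 5 genes most like each of Caprin2 and Tdrd7. Fewer than the rule allows were named from the splicing factors, and none by this rule from the marker lists. Cpeb4 was named in addition.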

Additional observations from a re-analysis of the deposited data

How the results depend on the processing

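Tdrd7, Caprin2, Rbm24 and Carhsp1 kept their direction and their call in all 14 alternatives. DESeq2, limma-voom, TMM without crystallin genes and a filter of 1 CPM in 3 libraries left the counts at 1 risen and 7 fallen of the 10 genes. With upper quartile scaling 2 rose, and with library total scaling 2 rose and 4 fell. Library total scaling moved the median log2 change of all features to 0.39, against 0.04, and the share of calls that rose to 85.2%, against 48.6%. It reversed Caprin1 (0.18) and Stau2 (0.048). Leaving out 1 library gave 0 to 1 risen and 4 to 7 fallen genes, and 2267 (without wild type library 2) to 5317 called features, with 2475 without wild type library 3.

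The replicate numbers were not taken to pair the libraries. Deviations of same-numbered libraries correlated at -0.03, 0.25 and 0.11, and Prox1 cKO library 1 correlated best with wild type library 2. With the replicate block, 4176 features were called and 1 of the 10 genes rose and 6 fell, with Stau2 at -0.30 (edgeR adjusted p = 0.0521). The block changed no other call among the 10. With 3 libraries a group, the exact test of a ratio cannot pass 0.05. Over the libraries left out, the log2 ratio change was -3.50 to -2.83 for the Caprin pair, 0.90 to 1.24 for the Celf pair and -0.55 to -0.46 for the Stau pair.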

Other observations

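Summed levels of marker lists of other cell types were as follows in CPM. Over all features tested, 15.9% rose by edgeR with TMM scaling. With library total scaling 5423 of 14271 features rose. Periocular mesenchyme genes summed to 845 to 3635 in the Prox1 cKO libraries and 331 to 673 in the wild type libraries (4 of 11 tested rose, Foxc2 listed at 0; 0 without Prox1 cKO library 3 or wild type library 2, 6 without Prox1 cKO library 2 or wild type library 1, and 11 with library total scaling). Pigment cell genes summed to 280.4 to 768 in the Prox1 cKO and 90.2 to 206 in the wild type (6 of 8 rose, and 3 without wild type library 2 or 3). Erythroid genes summed to 1421 to 2278 in the Prox1 cKO and 789.6 to 2662 in the wild type (4 of 11 rose, and 0 without Prox1 cKO library 2 or wild type library 3). Vessel endothelium genes summed to 456 to 626 in the Prox1 cKO and 286 to 526 in the wild type (1 of 9 rose; 8 without wild type library 1 or with library total scaling, and 0 without Prox1 cKO library 2 or wild type library 2 or 3). Macrophage genes summed to 75.5 to 107 in the Prox1 cKO and 39.7 to 86.4 in the wild type, and edgeR called 0 of 9 (1 at an unadjusted p under 0.05; DESeq2 called 1 and limma-voom 0), while 5 rose without wild type library 1 and 6 with library total scaling. The part of these cells in the changes of the 10 genes was not tested.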
